A study of Mus musculus with 6 samples.

Results

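The glycolysis and hypoxia genes are a list of 35 genes, of 40879 gene symbols counted in each library. They were chosen by name and matched to the gene symbols, with all 35 found. The list holds the first glucose transporter and the enzymes that turn glucose into pyruvate and lactate, the kinases that regulate this flow, a group of genes induced by the hypoxia-inducible factors (HIFs), and both main HIF alpha subunits. Counts came from cells labelled as primary hepatic stellate cells of wild-type male mice. However, the summed level of liver endothelial markers stood far above that of stellate cell markers in all 6 libraries. In 3 libraries the cells had been kept for 24 h with APB-R3, an engineered interleukin-18 binding protein, and in 3 libraries for the same time with vehicle. The dose of APB-R3 carries the number 150, once in µg per ml and once in µg per kg, so its unit is uncertain. Neither the strain nor the age of the mice, nor whether the replicates came from separate animals, is given in the sources used here, so that p-values reflect no more than the scatter of these 6 libraries, which could be technical. Levels are given as CPM of the library total, that is, counts scaled so that every library has the same sum. The libraries were of a 3' tag type (QuantSeq), in which a transcript yields 1 tag, so that CPM does not grow with transcript length. Levels of different genes are set side by side on this scale with a limit. The annotation and the treatment of reads that fit several places are not given, and both can change the level of a gene.

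Glycolysis splits glucose into pyruvate in the cytosol and yields ATP without oxygen. When oxygen is short, the HIF alpha subunits escape hydroxylation by the EGLN prolyl hydroxylases, pair with ARNT and bind DNA at the core ACGTG or GCGTG, which raises many glycolytic genes together with genes of vessel tone, pH control and mitophagy. In the liver oxygen falls along the sinusoid, and both a turn to glycolysis and HIF activity have been described in activated stellate cells.

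The promoters hold this core more often than not. RefSeq (GRCm38.p6) gave 45 start-site windows for 32 of the 35 members, each 300 bases long from 250 before to 50 after the start. Bnip3l, Ndrg1 and Epas1 had no window. ACGTG, on either strand, stood in 25 of the 45 windows (55.6%), and in 7 of the 8 windows of HIF-induced genes (87.5%). Among all 32851 windows of the table the share was 19.6%. These sets were not matched for base composition, and some windows of the same gene overlap, so they are not independent. With GCGTG counted as well, 37 of the 45 member windows (82.2%), all 8 windows of HIF-induced genes (100%) and 43.8% of all windows held a core. The word CACGTG, which holds the core on both strands and is also the E-box of Myc-type factors, was counted as 1 match. A match is a description of letters and not a measured binding site. The 250 bases before the start are shown for 3 members, because they span the range from several matches of ACGTG to none. One Ldha start had 3 matches, the most of any member window, Ankrd37 had 2, and Adm, the most abundant HIF-induced member, had none of ACGTG. The Adm stretch did hold the other core, GCGTG, on the opposite strand, where it reads CACGC. Capitals mark ACGTG on either strand, with CACGTG in full, and GCGTG is left in lower case.
Ldha, chr7:46845554-46845803, plus strand: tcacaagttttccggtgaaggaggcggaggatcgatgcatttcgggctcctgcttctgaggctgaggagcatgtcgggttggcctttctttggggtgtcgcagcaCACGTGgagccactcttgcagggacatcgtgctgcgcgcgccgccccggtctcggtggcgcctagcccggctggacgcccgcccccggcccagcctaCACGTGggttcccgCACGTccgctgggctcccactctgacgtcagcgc
Ankrd37, chr8:45999851-46000100, minus strand: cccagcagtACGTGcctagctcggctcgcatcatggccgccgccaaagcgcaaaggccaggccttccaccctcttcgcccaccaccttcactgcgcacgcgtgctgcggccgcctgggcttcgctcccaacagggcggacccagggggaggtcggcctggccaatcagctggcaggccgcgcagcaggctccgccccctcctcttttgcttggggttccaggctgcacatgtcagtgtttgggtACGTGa
Adm, chr7:110627407-110627656, plus strand: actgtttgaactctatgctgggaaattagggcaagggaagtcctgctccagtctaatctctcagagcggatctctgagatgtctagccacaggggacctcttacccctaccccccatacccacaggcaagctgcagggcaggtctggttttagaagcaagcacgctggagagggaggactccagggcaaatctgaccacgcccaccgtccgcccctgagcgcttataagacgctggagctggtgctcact

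No member passed the test between APB-R3 and vehicle. Of the 35 members 34 passed the low-count filter and were tested, all but Aldoa, and edgeR's quasi-likelihood test called 0 of them at an adjusted p under 0.05 (lowest adjusted p = 0.9998). The background was the same, with 0.0% of 12776 tested genes called. At an unadjusted p under 0.05 there were 0 members, where 3.33% of all tested genes lay, and 0 by DESeq2 or limma-voom as well. Some other settings, given below, had 1 to 3 members under it. The smallest unadjusted p of a member was 0.0566, for Gapdh, in edgeR's main fit across all genes. Fold changes stood on the side of APB-R3 in 24 members and on the side of vehicle in 10, with a median log2 fold change of 0.068, against 0.0032 over all tested genes. The 95% intervals, not adjusted for the number of genes, were narrowest for the abundant members Pkm and Hif1a. That of Pkm ran from −0.16 to 0.18 and that of Hif1a from −0.089 to 0.27. Not every abundant member had a narrow one, and that of Adm, the most abundant, ran from −0.077 to 0.39.

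**Figure D1:**
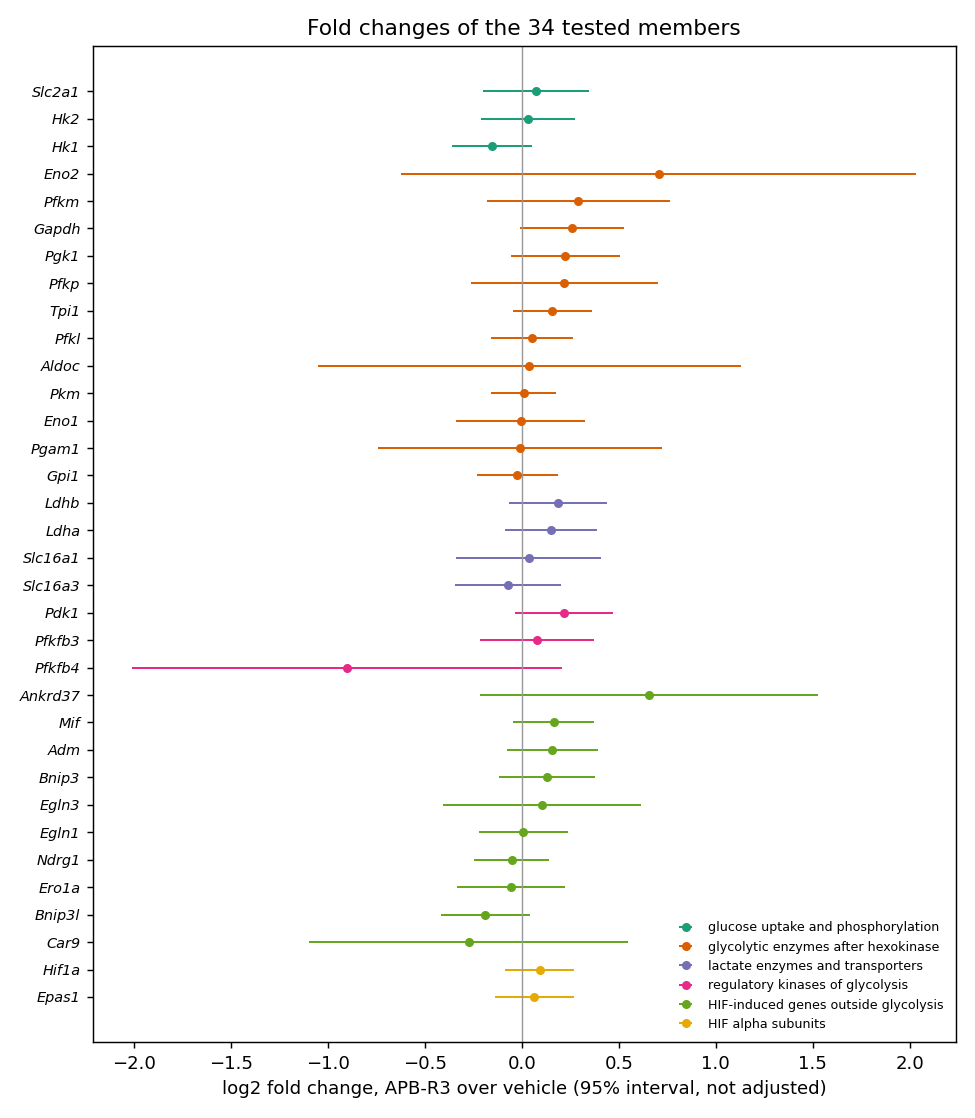
Log2 fold change of APB-R3 over vehicle for the 34 tested members, with 95% intervals from edgeR that are not adjusted for the number of genes; colours mark the roles of the genes. All intervals cross 0, and the widest belong to the low-count members Eno2, Aldoc, Pfkfb4, Ankrd37 and Car9.

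One library weighed on these directions. APB-R3 replicate 1 had the lowest total, 8323809 counts, where the other 5 libraries had 10074669 to 10792531. Of the 29 members with a mean of at least 5 CPM, 14 had their highest level in it, and 10 had their lowest level in vehicle replicate 2. Without APB-R3 replicate 1 the fold changes stood on the side of APB-R3 in 16 of 34 members and on the side of vehicle in 18.

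The summed markers went against the labelled cell type. Summed levels of 13 stellate cell markers were 650.1 to 803 CPM with APB-R3 and 777 to 857 CPM with vehicle, and those of 10 liver endothelial markers were 5499.9 to 6279 CPM with APB-R3 and 5807 to 6524 CPM with vehicle. Among defining stellate markers, the retinoid-storage enzyme Lrat averaged 1.34 CPM with APB-R3 and 2.03 CPM with vehicle, Des, which encodes desmin, 3.79 CPM with APB-R3 and 5.61 CPM with vehicle, and the growth factor receptor Pdgfrb 8.76 CPM with APB-R3 and 7.49 CPM with vehicle. Among endothelial markers, the hyaluronan receptor Lyve1 averaged 1748 CPM with APB-R3 and 1682 CPM with vehicle, Cdh5, which encodes VE-cadherin, 1114 CPM with APB-R3 and 1184 CPM with vehicle, and Pecam1 890.3 CPM with APB-R3 and 979 CPM with vehicle. Not every marker followed the sums. Of the stellate list, Tagln averaged 218 CPM with APB-R3 and 256 CPM with vehicle, Col1a1 137 and 141 CPM, and Nes 123 and 129 CPM, in the same order. Of the endothelial list, Tek averaged 47.2 CPM with APB-R3 and 48.2 CPM with vehicle, and Clec4g 47.2 and 56.1 CPM. Fold changes of the 13 stellate markers stood on the side of APB-R3 in 6 and on the side of vehicle in 7, and none passed the test. Acta2, the actin of activated stellate cells, was the only 1 of the 13 whose groups did not overlap, where 8.91% of all tested genes had no overlap. It had 97.2 ± 14.6 CPM with APB-R3 and 131 ± 2.11 CPM with vehicle (SD, n = 3 each). Its log2 fold change was −0.43 (SE 0.11), with an unadjusted p of 0.000800 and an adjusted p of 0.9998 in edgeR's fit across all genes. In that fit 3.33% of all tested genes lay under an unadjusted p of 0.05. The hepatocyte markers Hpx (unadjusted p = 0.00036) and Alb (0.011), both highest in vehicle replicate 2, were among them, and neither passed the test. Macrophage markers, 10 in number, summed to 277 to 421 CPM with APB-R3 and 271 to 348 CPM with vehicle. Hepatocyte markers summed to 5.05 to 15.7 CPM with APB-R3 and 8.57 to 57.5 CPM with vehicle, with 57.5 CPM in vehicle replicate 2, and neutrophil markers to 2.32 to 3.97 CPM with APB-R3 and 0.857 to 8.34 CPM with vehicle, with Ly6g, Camp and Cxcr2 at 0. Among the endothelial markers 9 of 10 had fold changes on the side of vehicle, and none passed the test. In such bulk samples fewer cells of a type and less RNA per cell cannot be told apart, and the part of these other cells in the values of the members was not tested.

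**Figure D2:**
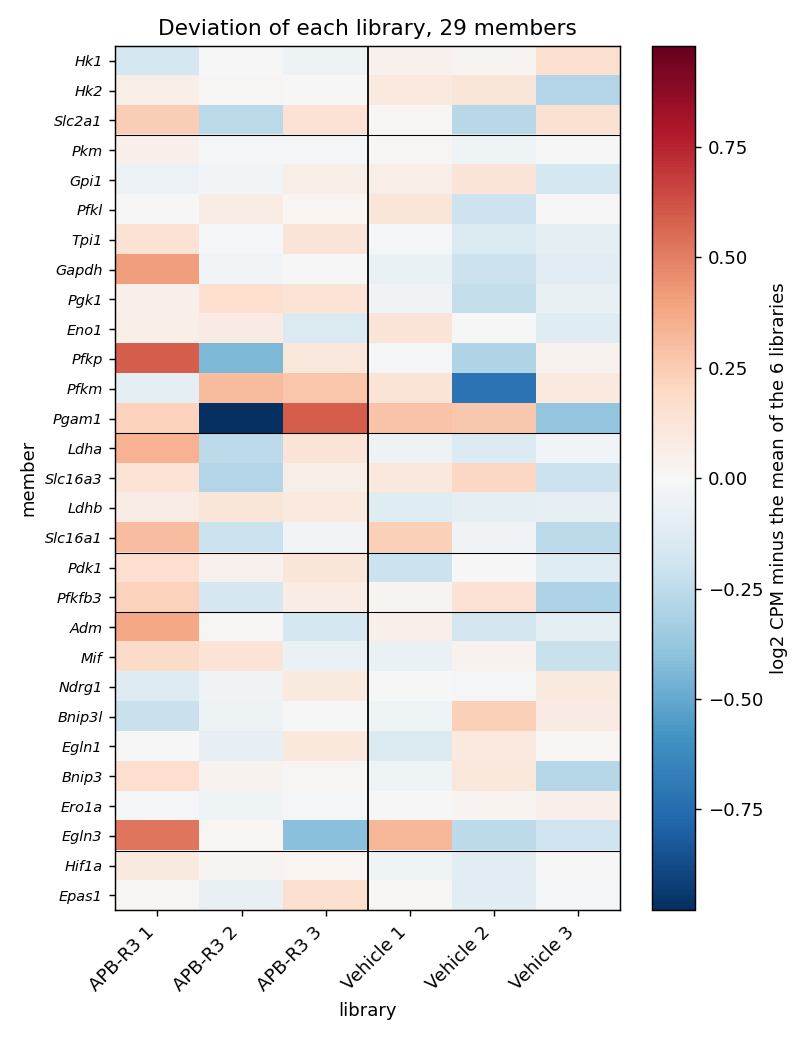
Each cell shows log2 CPM minus the mean of the 6 libraries for 1 of 29 members with a mean of at least 5 CPM, with APB-R3 libraries left of the line and vehicle libraries right of it. APB-R3 replicate 1 holds the highest level of 14 members, and the deviation largest in size, 0.98 on the log2 scale and downward, is that of Pgam1 in APB-R3 replicate 2.

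Glucose entry was led by 1 transporter and a pair of hexokinases. Slc2a1, the glucose transporter GLUT1, had 87.2, 61.5 and 81.4 CPM in APB-R3 libraries 1 to 3, against 74.4, 61.3 and 82.2 CPM in vehicle libraries 1 to 3. The groups overlapped, with a log2 fold change, 0.072 (SE 0.13), and its direction turned without APB-R3 replicate 1 (−0.038) or without vehicle replicate 2 (−0.027). Slc2a1 made up 84.7% ± 2.49 with APB-R3 and 84.3% ± 1.45 with vehicle (SD, n = 3 each) of the counts of 5 sugar transporter genes. Hexokinases trap glucose in the cell as glucose 6-phosphate. Hk1, the constitutive form, had 88.5, 99.3 and 96.6 CPM in APB-R3 libraries 1 to 3, against 103, 101 and 111 CPM in vehicle libraries 1 to 3. Every APB-R3 library lay below every vehicle library, but the log2 fold change of −0.15 (SE 0.10) did not pass edgeR's test (adjusted p = 0.9998). Hk2, the form that insulin and HIF induce, had 80.6, 77.4 and 76.6 CPM with APB-R3 and 82.3, 83.3 and 63.2 CPM with vehicle, with a log2 fold change, 0.030 (SE 0.12), that was −0.093 without vehicle replicate 3, its lowest library. Hk2 took 43.5% ± 2.72 with APB-R3 and 40.2% ± 5.24 with vehicle (SD, n = 3 each) of the counts of Hk1, Hk2, Hk3 and Hkdc1.

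The upper part of the pathway was carried by Gpi1 and the liver-type phosphofructokinase. Gpi1, the isomerase that makes fructose 6-phosphate, had 135, 138 and 146 CPM in APB-R3 libraries 1 to 3, against 147, 153 and 125 CPM in vehicle libraries 1 to 3. The groups overlapped, with a log2 fold change, −0.025 (SE 0.10), that turned without vehicle replicate 2 (0.048). Phosphofructokinase commits sugar to glycolysis and has a liver, a muscle and a platelet subunit. Pfkl, the liver subunit, had 123, 129 and 124 CPM with APB-R3 and 133, 107 and 122 CPM with vehicle, a log2 fold change, 0.052 (SE 0.10), that turned without vehicle replicate 2 (−0.020). It made up 81.2% ± 2.09 with APB-R3 and 83.4% ± 1.68 with vehicle (SD, n = 3 each) of phosphofructokinase counts. Pfkm, the muscle subunit, had 12.0, 15.8 and 15.4 CPM with APB-R3 and 14, 7.75 and 13.6 CPM with vehicle, and vehicle replicate 2 lay below the other 5 libraries. Its log2 fold change was 0.29 (SE 0.23), or 0.071 without that library. Pfkp, the platelet subunit, had 19.9, 9.73 and 14.3 CPM with APB-R3 and 13.1, 10.8 and 13.5 CPM with vehicle, with its highest and lowest level both in APB-R3 libraries. Its log2 fold change of 0.22 (SE 0.23) turned without APB-R3 replicate 1 (−0.070). Pfkm overlaps Senp1 and Pfkp overlaps Pitrm1 in the RefSeq annotation, and whether counting used strand is not given, so their counts are uncertain.

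Aldolase splits the sugar into a pair of three-carbon pieces, and its transcripts were hardly counted. Aldoa, the form of most tissues, had 0, 2 and 0 counts in APB-R3 libraries 1 to 3 and 7, 0 and 1 in vehicle libraries 1 to 3. Aldoc, the brain form, had 17, 16 and 25 counts in APB-R3 libraries 1 to 3 and 22, 23 and 16 in vehicle libraries 1 to 3, or 2.002 ± 0.501 CPM with APB-R3 and 1.94 ± 0.359 CPM with vehicle (SD, n = 3 each). The log2 fold change of Aldoc, 0.038 (SE 0.53), turned without APB-R3 replicate 3 (−0.14) or without vehicle replicate 3 (−0.11). The enzymes before and after it in the pathway, Pfkl and Tpi1, had over 90 CPM in every library. Aldoart1, a retrogene whose transcript end is near-identical to that of Aldoa, had 36 counts over the 6 libraries.

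The lower part, from triose to pyruvate, ran from Pgam1, the scarcest of the 29 well-counted members, to Pkm. Tpi1, which interconverts both trioses, had 115, 102 and 113 CPM in APB-R3 libraries 1 to 3, against 103, 94.3 and 97.9 CPM in vehicle libraries 1 to 3. Vehicle replicate 1 lay just above APB-R3 replicate 2, Spsb2 overlaps the gene, and the log2 fold change was 0.16 (SE 0.099). Gapdh, the dehydrogenase that makes NADH, had 73.2, 54.2 and 54.9 CPM in APB-R3 libraries 1 to 3, against 52.7, 47.7 and 51.2 CPM in vehicle libraries 1 to 3. All APB-R3 libraries lay above all vehicle libraries, but only APB-R3 replicate 1 stood well apart. The log2 fold change of 0.26 (SE 0.13) had an interval from −0.008 to 0.53 and was 0.098 without that library. Pgk1, the first ATP-yielding kinase, had 31.0, 33.7 and 32.9 CPM in APB-R3 libraries 1 to 3, against 29.2, 25.5 and 28.6 CPM in vehicle libraries 1 to 3. The groups did not overlap, and the log2 fold change of 0.22 (SE 0.14) ran from 0.18 to 0.26 with 1 library left out.

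Pgam1, the mutase of the next step, had 6.85, 2.97 and 8.83 CPM with APB-R3 and 7.09, 6.998 and 4.47 CPM with vehicle, the widest spread of any of the 29 members at a within-group coefficient of variation of 38.0%. Its log2 fold change of −0.0095 (SE 0.35) turned without APB-R3 replicate 2 (0.33) or without vehicle replicate 1 (0.096) or without vehicle replicate 2 (0.10). Eno1, the common enolase, had 22.0, 22.3 and 19.2 CPM with APB-R3 and 23.1, 21.1 and 19.4 CPM with vehicle. The groups overlapped, with a log2 fold change, −0.0078 (SE 0.16), that turned without APB-R3 replicate 3 (0.070) or without vehicle replicate 1 (0.054). Eno2, the neuronal enolase, had 30, 28 and 7 counts in APB-R3 libraries 1 to 3 and 11, 8 and 25 in vehicle libraries 1 to 3, and its log2 fold change of 0.71 (SE 0.64) had an interval from −0.62 to 2.03. Leaving out APB-R3 replicate 1 gave 0.24, leaving out vehicle replicate 3 gave 1.32, and the value was −0.049 without both APB-R3 replicate 1 and vehicle replicate 2. Pkm, the pyruvate kinase of most tissues, had 695, 665 and 664 CPM in APB-R3 libraries 1 to 3, against 678, 653 and 675 CPM in vehicle libraries 1 to 3. It was the most abundant enzyme of the list, above 98.6% of tested genes, and among the steadiest. Its log2 fold change was 0.0085 (SE 0.081) and turned without APB-R3 replicate 1 (−0.021). Pklr, the pyruvate kinase of hepatocytes and red cells, had 2 counts over all libraries.

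Some members, abundant and scarce, had near-identical copies elsewhere in the genome. The last 300 bases of each member's coding transcripts in GENCODE M21 were compared with all transcripts, and a copy was another gene that matched at 95% identity or more over at least 100 bases. Gapdh had 130 such genes, 125 of them pseudogenes. Ldha had 6, Eno1 5 and Bnip3 4. Aldoa and the abundant Pkm, Mif and Tpi1 had 2 each, and Gpi1 and Ldhb 1 each. The other 25 members had none, the scarce Pgam1 among them. Only 6 of the Gapdh copies are among the counted symbols, with 246 counts over all libraries where Gapdh itself had 3339. How reads that fit several places were treated is not given in the sources used here, and their part in the low levels of Gapdh, Eno1 and Aldoa was not tested. With listed copies summed into their gene, the log2 fold change of Gapdh was 0.25 and that of Eno1 −0.010. This alternative was chosen after the data were seen.

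**Figure D3:**
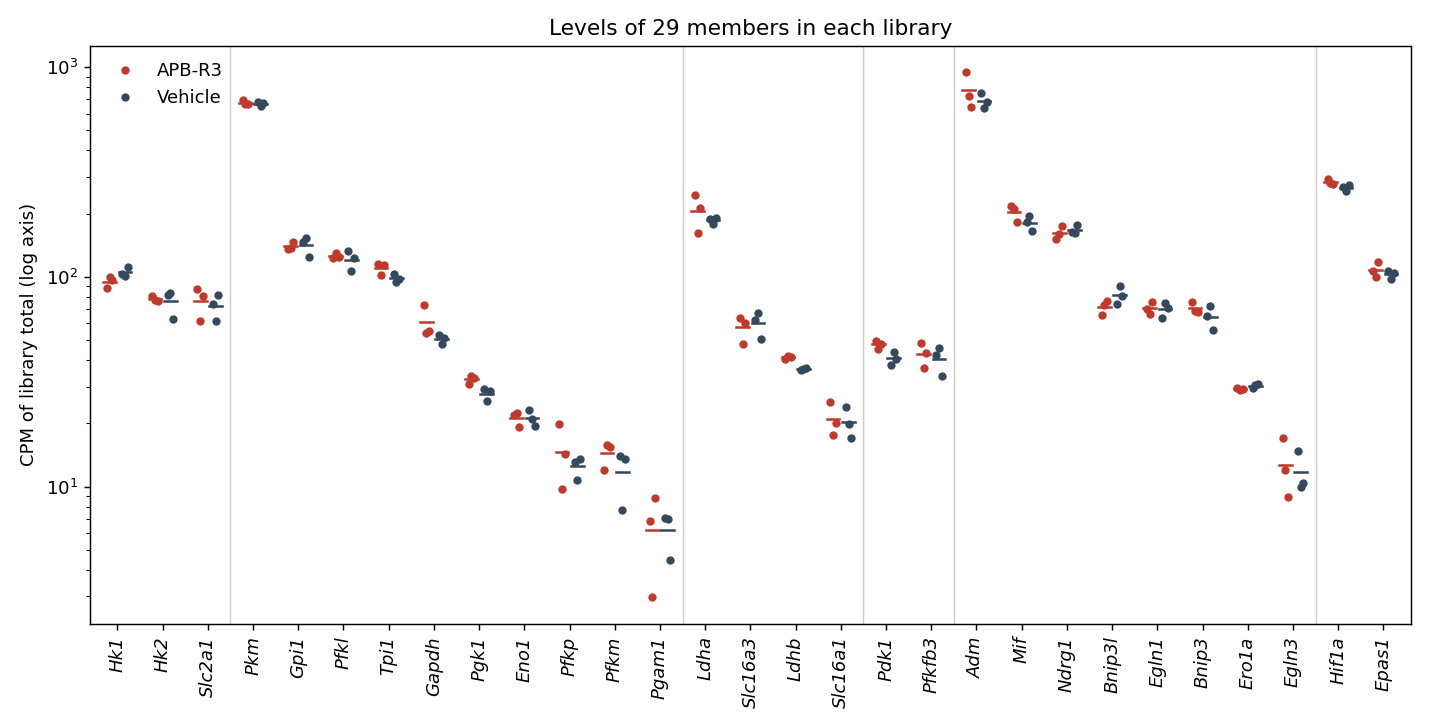
CPM of library total on a log axis for the 29 members with a mean of at least 5 CPM, with 3 APB-R3 libraries left and 3 vehicle libraries right for each gene and bars at the group means; grey lines part the roles (glucose entry, glycolytic enzymes, lactate, regulatory kinases, HIF-induced genes, HIF alpha subunits). Pkm and Adm stand highest, and between-group gaps are small beside the range of levels, which reaches from under 10 CPM for Pgam1 to over 600 CPM for Pkm.

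Lactate genes were dominated by Ldha. Lactate dehydrogenase regenerates NAD from pyruvate, with LDHA favouring lactate and LDHB favouring pyruvate. Ldha had 246, 163 and 213 CPM in APB-R3 libraries 1 to 3, against 188, 178 and 191 CPM in vehicle libraries 1 to 3. APB-R3 libraries held both the highest and the lowest value, and the log2 fold change of 0.15 (SE 0.11) was −8.7e-05 without APB-R3 replicate 1 and 0.29 with replicate 2 left out in its place. Ldhb had 40.7, 42.1 and 41.6 CPM in APB-R3 libraries 1 to 3, against 35.9, 36.5 and 36.7 CPM in vehicle libraries 1 to 3. Its groups did not overlap, and its within-group coefficient of variation of 1.49% was the smallest of the 29 members and lay under the 5.04% that counting error alone gives at its mean count. The log2 fold change was 0.18 (SE 0.12) (edgeR's adjusted p was 0.9998) and ran from 0.17 to 0.20 with 1 library left out. Ldha made up 83.0% ± 3.22 with APB-R3 and 83.6% ± 0.569 with vehicle (SD, n = 3 each) of the counts of both genes. The monocarboxylate transporters move lactate across the membrane. Slc16a1 (MCT1) had 25.2, 17.7 and 20.1 CPM with APB-R3 and 24.1, 19.95 and 17.04 CPM with vehicle, with a log2 fold change, 0.035 (SE 0.18), that turned without APB-R3 replicate 1 (−0.12) or without vehicle replicate 3 (−0.081). Slc16a3 (MCT4), the exporter of glycolytic cells, had 63.8, 47.8 and 60.4 CPM with APB-R3 and 62.6, 66.9 and 50.3 CPM with vehicle. Its log2 fold change of −0.072 (SE 0.13) turned without APB-R3 replicate 2 (0.039) or without vehicle replicate 2 (0.025), and the gene overlaps Csnk1d, so that its counts are uncertain.

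Among the regulatory kinases Pdk1 had the steadiest difference. PDK1 phosphorylates pyruvate dehydrogenase and so restrains its use of pyruvate inside the mitochondria. Pdk1 had 49.5, 45.5 and 47.9 CPM in APB-R3 libraries 1 to 3, against 38.2, 43.9 and 40.5 CPM in vehicle libraries 1 to 3. No APB-R3 library reached down to a vehicle library, the log2 fold change was 0.22 (SE 0.12) with an interval from −0.037 to 0.47, and it ran from 0.16 to 0.28 with 1 library left out. Its adjusted p in edgeR's quasi-likelihood test was 0.9998. Pfkfb3, which makes the fructose 2,6-bisphosphate that activates phosphofructokinase, had 48.4, 36.8 and 43.5 CPM with APB-R3 and 42.2, 45.6 and 33.5 CPM with vehicle. Its groups overlapped, and the log2 fold change of 0.077 (SE 0.14) turned without APB-R3 replicate 1 (−0.026) or without vehicle replicate 3 (−0.046). Pfkfb4, a further isoform, had 22, 9 and 14 counts in APB-R3 libraries 1 to 3 and 39, 23 and 32 in vehicle libraries 1 to 3. The log2 fold change was −0.90 (SE 0.53) with an interval from −2.01 to 0.21, and the groups overlapped through APB-R3 replicate 1. Without that library the value was −1.43. Pfkfb3 made up 79.2% ± 2.21 with APB-R3 and 74.6% ± 3.32 with vehicle (SD, n = 3 each) of the counts of the 4 isoforms.

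HIF-induced genes outside glycolysis were led by a single transcript. Adm, which encodes the vasodilator peptide adrenomedullin, had 944, 731 and 643 CPM in APB-R3 libraries 1 to 3, against 753, 639 and 683 CPM in vehicle libraries 1 to 3. It lay above 98.8% of tested genes, and APB-R3 replicate 1 lay far above the other 5 libraries. The log2 fold change of 0.16 (SE 0.11) was −0.021 without that library. Mif, a cytokine that is also a HIF target, had 218, 209.8 and 183 CPM in APB-R3 libraries 1 to 3, against 183, 196 and 165 CPM in vehicle libraries 1 to 3. The groups overlapped, with a log2 fold change, 0.16 (SE 0.10), that ran from 0.095 to 0.24 with 1 library left out. Ndrg1, a stress-responsive cytosolic protein, had 151, 160.3 and 175 CPM with APB-R3 and 164, 163 and 176 CPM with vehicle, a log2 fold change of −0.052 (SE 0.093) that ran from −0.10 to −0.010 with 1 library left out.

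The mitophagy receptors had fold changes of opposite sign. Bnip3 had 75.6, 68.9 and 68.1 CPM in APB-R3 libraries 1 to 3, against 65.4, 72.8 and 55.5 CPM in vehicle libraries 1 to 3, a log2 fold change of 0.13 (SE 0.12). Bnip3l, its close relative, had 65.8, 73.8 and 76.3 CPM in APB-R3 libraries 1 to 3, against 74.5, 89.9 and 80.9 CPM in vehicle libraries 1 to 3, a log2 fold change of −0.19 (SE 0.11). With 1 library left out, Bnip3 ran from 0.026 to 0.23, lowest without vehicle replicate 3, and Bnip3l from −0.26 to −0.10, closest to 0 without vehicle replicate 2. The groups overlapped in both genes, neither gene passed the test, and the difference between the genes was not tested. Ero1a, the oxidase that makes disulfide bonds in the endoplasmic reticulum, had 29.6, 28.8 and 29.3 CPM in APB-R3 libraries 1 to 3, against 29.6, 30.4 and 30.7 CPM in vehicle libraries 1 to 3. Its APB-R3 libraries lay below its vehicle libraries by a small margin on this scale and overlapped them on TMM-scaled library sizes, with a log2 fold change of −0.055 (SE 0.13). Its within-group coefficient of variation of 1.62% also lay under the counting error of 5.77%.

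The oxygen sensors and the sparse HIF targets gave no clearer picture. Egln1, the main prolyl hydroxylase that marks HIF alpha for destruction, had 70.3, 66.3 and 75.5 CPM with APB-R3 and 63.8, 75.2 and 71.2 CPM with vehicle, and its log2 fold change of 0.0068 (SE 0.11) turned without APB-R3 replicate 3 (−0.032) or without vehicle replicate 1 (−0.060). Egln1 overlaps the long noncoding gene Gm46060, and its counts are uncertain for that. Egln3, the isoform HIF induces most, had 17.1, 12.0 and 8.93 CPM with APB-R3 and 14.9, 9.93 and 10.4 CPM with vehicle. The highest and the lowest library were both APB-R3 libraries, and the log2 fold change of 0.10 (SE 0.25) turned without APB-R3 replicate 1 (−0.17). Ankrd37, an ankyrin-repeat protein, had 50, 36 and 45 counts in APB-R3 libraries 1 to 3 and 33, 40 and 18 in vehicle libraries 1 to 3, a log2 fold change of 0.66 (SE 0.42) with an interval from −0.22 to 1.53. Car9, the carbonic anhydrase that exports acid from hypoxic cells, had 32, 40 and 32 counts in APB-R3 libraries 1 to 3 and 60, 26 and 50 in vehicle libraries 1 to 3, a log2 fold change of −0.28 (SE 0.40). With 1 library left out, Ankrd37 ran from 0.39 to 0.91, and Car9 from −0.55 to −0.020, closest to 0 without vehicle replicate 1. The groups of both genes overlapped between groups. Ankrd37 overlaps Ufsp2, and Car9 overlaps Arhgef39 and Tpm2, which adds to their uncertainty.

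Both HIF alpha subunits were well counted. Hif1a had 293, 279 and 278 CPM in APB-R3 libraries 1 to 3, against 267, 255 and 274 CPM in vehicle libraries 1 to 3. The APB-R3 libraries lay above the vehicle libraries by a margin smaller than the spread within vehicle, and the log2 fold change was 0.090 (SE 0.086), or 0.058 to 0.11 with 1 library left out. Epas1, which encodes HIF-2 alpha and is abundant in endothelium, had 106, 100.3 and 118 CPM in APB-R3 libraries 1 to 3, against 106, 97.8 and 105 CPM in vehicle libraries 1 to 3, with overlapping groups and a log2 fold change of 0.064 (SE 0.099). With 1 library left out it ran from 0.010 to 0.11, lowest without APB-R3 replicate 3. Hif1a made up 72.4% ± 1.84 with APB-R3 and 72.1% ± 0.486 with vehicle (SD, n = 3 each) of the counts of the 3 HIF alpha genes, of which Hif3a had 0. HIF alpha activity is set largely by protein stability, which these counts do not measure.

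Over the list, groups did not overlap in 7 of 34 tested members (20.6%), where 8.91% of all tested genes had groups that did not overlap. Gapdh, Pgk1, Ldhb, Pdk1 and Hif1a were higher with APB-R3 in every library, against a background of 4.75% of tested genes, and Hk1 and Ero1a were lower, against 4.16%. On TMM-scaled sizes the count was 6 of 34 (17.6%), where 8.81% of tested genes had no overlap. Without APB-R3 replicate 1 it was 9 of 34 (26.5%), and the share of all tested genes was 19.0%. Without vehicle replicate 2 the share was 32.4% of members and 17.5% of all tested genes. With both of these libraries left out it was 38.2% of members and 32.6% of all tested genes. None of these genes passed the test across all genes, and an exact two-sided permutation test of 3 against 3 libraries cannot give a p below 0.1. The median within-group coefficient of variation was 8.73% for the 29 members, beside 11.9% for the 9992 tested genes at the same minimum level, a comparison not matched for level, since 23 of the 34 tested members lay above the median level of tested genes.

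Set against each other, glycolytic enzymes and HIF-induced genes took similar shares of the libraries, but only with Adm counted in. The 17 glycolytic enzymes, from hexokinase to lactate dehydrogenase, summed to 1695, 1559 and 1624 in APB-R3 libraries 1 to 3, against 1613, 1529 and 1557 in vehicle libraries 1 to 3, in CPM. Their mean was 1626 ± 67.9 with APB-R3 and 1567 ± 43.0 with vehicle (SD, n = 3 each), a ratio of 1.04. The 10 HIF-induced genes summed to 1581, 1358 and 1267 in APB-R3 libraries 1 to 3, against 1357, 1282 and 1279 in vehicle libraries 1 to 3, in CPM. Their mean was 1402 ± 161 with APB-R3 and 1306 ± 44.3 with vehicle (SD, n = 3 each), a ratio of 1.07. APB-R3 replicate 1 had the highest sum in both groups of genes. Without Adm the other 9 genes summed to 637, 627 and 624 in APB-R3 libraries 1 to 3, against 604, 643 and 596 in vehicle libraries 1 to 3, with overlapping groups. The quotient of glycolytic over HIF-induced sums was 1.07, 1.15 and 1.28 in APB-R3 libraries 1 to 3, against 1.19, 1.19 and 1.22 in vehicle libraries 1 to 3. The lowest and the highest quotient were both those of APB-R3 libraries, and the vehicle libraries lay between them. This order did not hold with Pkm and Adm taken out together, and the quotient was not formed with either taken out alone. Without that pair the quotient was 1.57, 1.43 and 1.54 in APB-R3 libraries 1 to 3, against 1.55, 1.36 and 1.48 in vehicle libraries 1 to 3, with APB-R3 replicate 1 highest and vehicle replicate 2 lowest. The ratio of group means of the quotient was 0.973 with all genes and 1.03 without Pkm and Adm.

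The median log2 fold change was 0.10 for the 16 tested glycolytic enzymes, 12 of them on the side of APB-R3, and 0.056 for the 10 HIF-induced genes, 6 of them on that side. Over all tested genes the median was 0.0032. Without APB-R3 replicate 1 the medians were 0.0077 and −0.016, and with replicate 2 of APB-R3 left out they were 0.20 and 0.089, glycolytic enzymes first. These medians describe the members that passed the filter and were not tested.

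**Figure D4:**
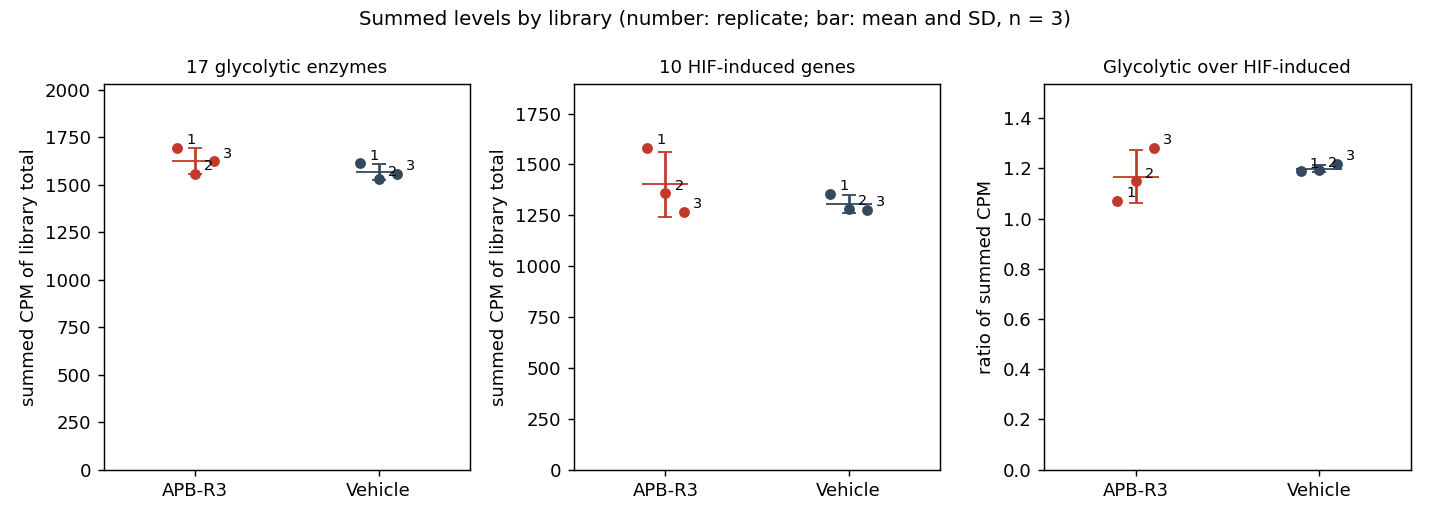
Summed CPM of 17 glycolytic enzymes (left), of 10 HIF-induced genes (middle) and their quotient (right) in each library, with the replicate number beside each point and the group mean ± SD (n = 3). APB-R3 replicate 1 is highest in both sums and lowest in the quotient, where without Pkm and Adm it is highest at 1.57; the groups overlap in all panels.

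Other genes of the same pathways, taken from lists of known pathway genes, gave the same count of 0 calls. Of 21 further genes of glycolysis and sugar entry 14 were tested and 0 passed in either direction, with fold changes above 0 in 4 and a median of −0.047 on the log2 scale. The smallest p on each side belonged to the phosphoglucomutase genes Pgm1, with a fold change of 0.097 (SE 0.16), and Pgm2, with −0.13 (SE 0.12), both on the log2 scale. Pgm1 turned without APB-R3 replicate 1 (−0.045) and without vehicle replicate 1 (−0.026). All 13 genes of pyruvate entry into mitochondria were tested and 0 passed, with 9 above 0 and a median log2 fold change of 0.069. Mpc2, a subunit of the mitochondrial pyruvate carrier, had 49.1, 48.6 and 58.7 CPM with APB-R3 and 47.2, 44.0 and 45.2 CPM with vehicle, groups that did not overlap and a log2 fold change of 0.19 (SE 0.12). That of the phosphatase gene Pdp2 was −0.16 (SE 0.14). In the pentose phosphate pathway 0 of 7 tested genes passed, with 4 above 0 and a median of 0.081 on the log2 scale. There the epimerase gene Rpe had 0.26 (SE 0.18) and the transketolase gene Tkt −0.16 (SE 0.11) as log2 fold changes. Groups did not overlap in 0 of 14, 1 of 13 and 0 of 7 tested genes of these lists, in the order given. Over all tested genes the share was 8.91%, and Mpc2 was named for the smallest p on its side.

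The HIF regulators and further HIF targets were alike in this. Of 11 genes of oxygen sensing and HIF regulation 9 were tested and 0 passed, 6 of them above 0, with a median log2 fold change of 0.019. Egln2, the third prolyl hydroxylase gene, had 81.7, 72.5 and 74.2 CPM with APB-R3 and 70.3, 66.9 and 62.1 CPM with vehicle, groups that did not overlap and a log2 fold change of 0.19 (SE 0.11). Hif1an, the asparaginyl hydroxylase that blocks HIF transactivation, had a log2 fold change of −0.20 (SE 0.14). Of 20 further HIF targets 18 were tested and 0 passed, 12 of them above 0, with a median log2 fold change of 0.078. Higd1a, a mitochondrial survival protein, had 53.2, 50.03 and 47.1 CPM with APB-R3 and 45.4, 44.9 and 42.7 CPM with vehicle, with a log2 fold change, 0.17 (SE 0.12), and groups that did not overlap. P4ha1, the collagen prolyl hydroxylase subunit, had 101, 116 and 109 CPM with APB-R3 and 131, 114 and 117 CPM with vehicle, with a fold change of −0.15 (SE 0.10) on the log2 scale and overlapping groups. Groups did not overlap in 1 of the 9 tested HIF regulators and in 2 of the 18 tested further targets. Over all tested genes the share was 8.91%, and Egln2 and Higd1a were named for the smallest p on their side.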

How the data were processed

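The authors deposited whole-number counts of reads per gene, 1 file per library. Total RNA (Trizol, 500 ng) went into Lexogen QuantSeq libraries, per the labels' protocols. Per the submitters' processing notes, bcl2fastq 2.20.0.422, fastp, STAR and HTSeq were used on GRCm39; other versions, the annotation, the strand setting and the use of molecular identifiers are not stated in the sources. Column headers carry other replicate numbers than the titles, and each library was named by its title. Totals were 8323809 to 10792531 counts.

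Members, lists and tests were chosen with earlier results of these data known. Levels are CPM of library total. The test was edgeR 4.0.16 (R 4.3.3): filterByExpr (minimum count 10, minimum total 15), TMM, glmQLFit and glmQLFTest on treatment alone, two-sided, Benjamini-Hochberg adjusted over 12776 genes. It was tested on simulated data. Standard errors are the log2 fold change over the square root of F. Members with a mean of at least 5 CPM are given in every library and the others by counts; each further list is given by its counts and the smallest p in each direction. Copies were searched with BLAST 2.17.0. Counts of every pair of libraries differed beyond sampling noise (chi-square per degree of freedom 5.75 to 14.5). Alternatives were DESeq2 1.42.0, limma-voom (limma 3.58.1), other size factors and filters, a replicate block, the 20 most abundant genes left out, and libraries left out. The labels used here give no batch.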

Additional observations from a re-analysis of the deposited data

How the results depend on the processing

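The number of members called was 0 in all 17 settings, and their lowest adjusted p in any was 0.902. At an unadjusted p under 0.05 lay Gapdh with the replicate block or with no low-count filter. Gapdh and Ldha lay there without APB-R3 replicate 2, and Adm, Gapdh and Mif without APB-R3 replicate 3. Pfkfb4 did so without APB-R3 replicate 1, with or without vehicle replicate 2. Over all genes 0 were called, except 20 with no low-count filter, and 0 to 1 with each library left out (1 without vehicle replicate 3). The replicate block also called 0 genes, with 539 at an unadjusted p under 0.05, where the main fit had 425. Same-numbered libraries had deviations that correlated at 0.0225, 0.0270 and 0.0480, and each correlated best with its own number. Libraries of different numbers correlated at −0.0265 to −0.0031. The sources used here do not say whether the numbers pair libraries, and correlations this small cannot decide it. With 1 library left out, the median log2 fold change ran from 0.0077 to 0.20 for glycolytic enzymes and from −0.016 to 0.089 for HIF-induced genes, and the ratio of summed CPM from 1.02 to 1.06 and from 1.005 to 1.13. With both vehicle replicate 2 and APB-R3 replicate 1 left out, the median of HIF-induced genes was −0.036, and 11 members turned, to −0.064 for Adm, −0.26 for Egln3, −0.049 for Eno2, 0.064 for Gpi1, −0.020 for Ldha, −0.014 for Pfkl, −0.16 for Pfkp, 0.016 for Pgam1, −0.027 for Pkm, −0.13 for Slc16a1, −0.14 for Slc2a1. For the 17 members that turned in any setting, log2 fold changes with 1 library left out ran over −0.021 to 0.28 for Adm, −0.14 to 0.21 for Aldoc, −0.060 to 0.072 for Egln1, −0.17 to 0.31 for Egln3, −0.071 to 0.070 for Eno1, 0.24 to 1.32 for Eno2, −0.11 to 0.048 for Gpi1, −0.093 to 0.11 for Hk2, −8.7e-05 to 0.29 for Ldha, −0.046 to 0.18 for Pfkfb3, −0.020 to 0.12 for Pfkl, −0.070 to 0.44 for Pfkp, −0.35 to 0.33 for Pgam1, −0.021 to 0.031 for Pkm, −0.12 to 0.17 for Slc16a1, −0.19 to 0.039 for Slc16a3 and −0.038 to 0.20 for Slc2a1. Pgam1 also turned with library size only (0.00057). The direction held in every setting for 17 of 34 members. The causes were not tested. Few counts limit Aldoa, Aldoc, Eno2, Pfkfb4, Ankrd37 and Car9, for which only large differences could be seen.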
